A study of Mus musculus with 6 samples.

Results

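The 62 odorant receptor genes described here lie on mouse chromosome 7, beyond the distal end of the class I receptor cluster. They were chosen by gene number alone, as every gene of the count table named Olfr470 to Olfr519 or Olfr692 to Olfr716 without a pseudogene suffix, out of 53686 gene symbols and 1106 odorant receptor genes so named. Olfr692 to Olfr716 gave 21 genes, called the near run here, and Olfr470 to Olfr519 gave 41, called the far run. RNA came from dissected main olfactory epithelium, the tissue that holds the odour-sensing neurons, of C57BL/6J mice. Wild-type mice gave 3 libraries, and mice hemizygous for the transgene 5x21-OR1A1 gave another 3. OR1A1 is a human odorant receptor. 5x21 is known as an array of a short enhancer element that holds a homeodomain binding site. The array is placed before a receptor transgene, and with it very many neurons choose that transgene. The labels give neither age, sex nor the number of transgenic lines, and they do not say that the libraries of a group came from separate mice. The p-values therefore measure the spread between libraries, which may be technical.

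Each mature olfactory neuron transcribes a single odorant receptor gene, chosen from a very large family, and all the others stay silent in that cell. The family has a class I branch, which in the mouse sits in a cluster on chromosome 7 and is used mainly in the dorsal epithelium, and a larger class II branch spread over many chromosomes. Choice of class II genes depends on enhancers bound by Lhx2 and Ebf proteins and is favoured by the transcription factor Bcl11b, while class I genes depend on an enhancer of their own. The series' title sets the comparison within the question of how receptor choice works, as seen with a receptor transgene that many neurons express. The comparison here shows how the receptors nearest to the class I cluster differed between the genotypes.

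Not all of these genes are class II by name. On GRCm38, with the GENCODE vM21 annotation, the class I genes ended at position 105342270 of chromosome 7. Olfr692 followed after 26.0 kb, at chr7:105368230-105369355, and 1306 kb then separated it from Olfr693, the first of a dense group of 20 genes at chr7:106675005-107150581. The far run of 41 genes occupied chr7:107842905-108894420. RefSeq synonyms gave a MOR family, a grouping by protein sequence, for 61 of the 62 genes, and families up to MOR42 are class I. Olfr692 (MOR36), Olfr503 (MOR34) and Olfr504 (MOR40) carried class I family names, the last pair from inside the far run. Some 100-base stretches of Olfr503 and Olfr504 are identical to stretches of the class I genes Olfr658 (9.62% of windows) and Olfr657 (2.68%). The near run otherwise held 12 genes of MOR283, 5 of MOR260, 2 of MOR263 and 1 of MOR103. The far run otherwise held 29 genes of MOR204, 6 of MOR268, 2 of MOR267 and 1 of MOR195, and Olfr471, annotated as an unprocessed pseudogene, had no family name.

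Promoter sequence is shown for the 4 genes whose start in RefSeq (GRCm38.p6) lay within 30 bases of the GENCODE 5′ end and ahead of the coding sequence. RefSeq windows were found for 56 of the 62 genes, but most of those begin at the coding start or differ from GENCODE. Each sequence is the 250 bases before the start, read 5′ to 3′ on the gene's strand. Capitals mark matches on either strand to the homeodomain letters TAATTA and TAATGA and to the Ebf-like letters CCCNNGGG; no printed match overlaps another.
Olfr478: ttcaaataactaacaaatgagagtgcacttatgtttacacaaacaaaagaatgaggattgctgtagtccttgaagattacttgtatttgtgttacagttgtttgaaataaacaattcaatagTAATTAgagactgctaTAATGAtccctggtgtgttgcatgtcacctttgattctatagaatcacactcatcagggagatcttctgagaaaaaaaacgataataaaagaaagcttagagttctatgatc
Olfr701: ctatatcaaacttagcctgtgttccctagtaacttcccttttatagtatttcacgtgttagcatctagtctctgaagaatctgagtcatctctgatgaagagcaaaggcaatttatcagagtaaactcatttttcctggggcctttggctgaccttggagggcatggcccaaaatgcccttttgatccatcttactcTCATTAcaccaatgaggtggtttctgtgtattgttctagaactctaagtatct
Olfr710: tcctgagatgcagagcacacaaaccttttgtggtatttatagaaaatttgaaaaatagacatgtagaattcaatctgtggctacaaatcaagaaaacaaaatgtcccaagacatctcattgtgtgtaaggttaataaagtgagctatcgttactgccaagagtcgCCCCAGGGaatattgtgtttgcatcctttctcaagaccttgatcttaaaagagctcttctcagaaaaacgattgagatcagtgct
Olfr711: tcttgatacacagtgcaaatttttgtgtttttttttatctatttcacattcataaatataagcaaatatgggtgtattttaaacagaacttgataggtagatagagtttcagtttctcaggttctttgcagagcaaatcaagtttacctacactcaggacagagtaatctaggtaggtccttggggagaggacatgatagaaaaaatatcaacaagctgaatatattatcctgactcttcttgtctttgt
The window of Olfr478, a MOR204 gene of the far run, lies at chr7:108033968-108034217 on the minus strand and held 1 TAATTA and 1 TAATGA match. Olfr701, a MOR283 gene at chr7:106813879-106814128 on the plus strand, had 1 TAATGA match, on the opposite strand. Olfr710, a MOR260 gene at chr7:106948313-106948562 on the minus strand, had 1 CCCNNGGG match. Olfr711, a MOR103 gene at chr7:106975452-106975701 on the minus strand, had none of these letters. Of 27025 RefSeq promoter windows, 4.90% held TAATTA, 8.77% held TAATGA and 11.7% held CCCNNGGG. Of the 940 odorant receptor windows, many of which begin at the coding start, 18.2%, 25.2% and 2.77% did. A match describes letters and not a bound site.

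Library totals ran from 27506217 to 35804712 counts, and levels are given in counts per 1000000 of the TMM-scaled library total (CPM). Among 19 markers of mature olfactory neurons 6 fell and 0 rose, with a median log2 fold change of -0.60. Their summed level was 23293 to 30891 CPM in wild-type libraries and 16530 to 17995 CPM in transgenic ones, and no marker was at 0. Of 16 progenitor markers 7 rose and 0 fell (median 0.50), of 14 immature neuron markers 4 rose and 1 fell (median 0.38), and of 12 supporting and basal cell markers 10 were tested and 0 changed, with 1 at 0 in every library. In bulk tissue fewer cells of a type and less RNA per cell cannot be told apart, and the part of these marker differences in the receptor values was not tested.

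Most of the receptor genes were lower in the transgenic libraries, and most of the calls were in the far run. Of the 47 genes with enough counts for edgeR's quasi-likelihood test, 10 fell and 1 rose at a Benjamini-Hochberg adjusted p under 0.05, and 36 passed in neither direction. Over all 19267 genes tested, 2.20% were called lower and 0.519% higher. An unadjusted edgeR p under 0.05 was found for 30 of the 47, and for 3293 of all 19267 genes tested. Among 723 tested class II receptors outside the 62 genes it was found for 407. The median log2 fold change of the 47 genes, transgenic over wild-type, was -0.74, with a range from -2.82 to 1.77. Over all genes tested the median was 0.02. The libraries of the genotypes did not overlap for 28 of the 47 genes, with the transgenic ones below for 23 and above for 5. Over all genes tested, 12.5% had the transgenic libraries all below and 11.4% all above. Without Olfr692, Olfr503 and Olfr504 the counts were again 10 lower and 1 higher, of 46 tested.

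Leaving out any library gave fewer lower calls. There were 9 without wild-type library 1 (2.41% of all genes tested) and 9 without wild-type library 3 (1.86%). Without wild-type library 2 there were 5 lower and 0 higher, beside 1.33% lower and 0.259% higher of all genes tested. Without transgenic library 1 it was 4 lower and 0 higher (0.693% and 0.0968% of all genes), without library 2 again 4 and 0 (0.769% and 0.116%), and without library 3 it was 3 and 0 (0.692% and 0.0713%). Olfr481, Olfr510 and Olfr517 were called lower in every one of these fits and under every other setting tried.

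**Figure D1:**
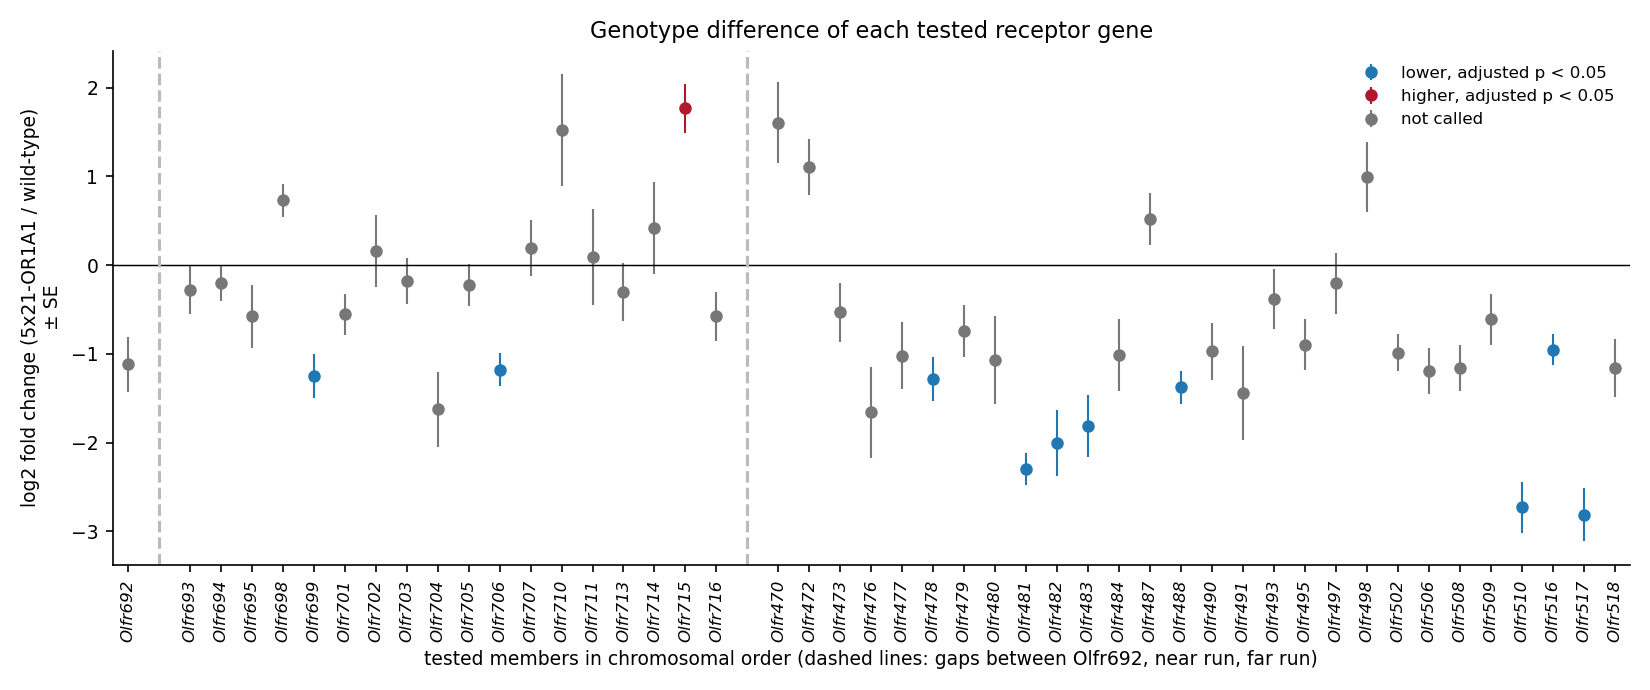
Log2 fold change (5x21-OR1A1 over wild-type, vertical axis, bars are the SE) of the 47 tested genes in chromosomal order (horizontal axis), with colours for the edgeR call at adjusted p under 0.05. All 8 calls of the far run lie below 0, and the near run has 2 lower calls and the only higher call, Olfr715.

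MOR204, the family that fills most of the far run, held 6 of the 10 lower calls. Of its 29 genes 23 were tested, 6 fell, 0 rose, and the median log2 fold change was -1.02. Olfr481 was at 9.91, 10.3 and 8.58 CPM in wild-type libraries 1, 2 and 3 and at 2.13, 1.51 and 2.21 CPM in the transgenic libraries. The wild-type libraries lay close together and well above the transgenic ones, and the log2 fold change of -2.30 (SE 0.18) had the lowest adjusted p of the 47 genes, 0.00142 in edgeR. Olfr510 was at 4.54, 6.48 and 3.60 CPM in wild-type libraries and 0.899, 0.686 and 0.589 CPM in transgenic ones. Its groups were also far apart, with wild-type library 2 the highest, at a log2 fold change of -2.73 (SE 0.29, edgeR adjusted p = 0.00400). Olfr488 was at 12.5, 11.9 and 10.1 CPM in wild-type libraries and 3.60, 5.52 and 4.20 CPM in transgenic ones. It fell by 1.38 on the log2 scale (SE 0.18, edgeR adjusted p = 0.00869), and its groups did not overlap.

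The other MOR204 calls came from neighbouring genes, Olfr478, Olfr482 and Olfr483, that lie on either side of Olfr481. Olfr478 was at 4.45, 6.04 and 3.22 CPM in wild-type libraries and 1.85, 1.99 and 1.80 CPM in transgenic ones. The transgenic values were nearly level, the wild-type ones were not, and the log2 fold change was -1.28 (SE 0.25, edgeR adjusted p = 0.0387). Olfr483 was at 7.27, 10.3 and 3.77 CPM in wild-type libraries and 1.69, 2.40 and 2.03 CPM in transgenic ones. Wild-type library 3 was the lowest of its group for this gene but still above every transgenic library (log2 fold change -1.81, SE 0.35, edgeR adjusted p = 0.0398). Olfr482 was at 1.49, 2.50 and 1.07 CPM in wild-type libraries and 0.409, 0.377 and 0.479 CPM in transgenic ones, again without overlap (-2.00, SE 0.37, edgeR adjusted p = 0.0328). Of the 100-base windows of Olfr482, 24.0% also occur in other transcripts, so its value is uncertain. All 7 genes from Olfr478 to Olfr484, a stretch chosen after its values were seen, were tested, and in all 7 the transgenic libraries lay below the wild-type ones. Of these, 4 were called, and the median log2 fold change was -1.28.

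Olfr506, also MOR204, had the highest wild-type level of the 62 genes per kb of exon, 5.68 CPM per kb. It was at 15.2, 27.0 and 12.7 CPM in wild-type libraries and 8.07, 8.06 and 7.92 CPM in transgenic ones. Wild-type library 2 stood well above the other wild-type libraries, and these stood above every transgenic library. Its log2 fold change of -1.20 (SE 0.26) did not pass, with an edgeR adjusted p of 0.058. It passed with DESeq2, with no count filter, with scaling to mature neuron markers and without wild-type library 2 or 3.

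Some MOR204 genes had higher values in transgenic tissue, and none of them passed. Olfr472 was at 1.81, 2.36 and 4.46 CPM in wild-type libraries and 7.17, 5.46 and 5.86 CPM in transgenic ones, with no overlap (log2 fold change 1.11, SE 0.32, edgeR adjusted p = 0.129). Olfr470 was at 0.127, 0.137 and 0.381 CPM in wild-type libraries and 0.763, 0.652 and 0.516 CPM in transgenic ones (1.61, SE 0.46, edgeR adjusted p = 0.126). Both lie at the start of the far run, next to each other but for Olfr471, and wild-type library 3 was the nearest to the transgenic level for both. Olfr472 passed without wild-type library 3, with DESeq2 and with scaling to mature neuron markers, and Olfr470 with that scaling alone. With that scaling 44.3% of all genes tested were called higher, so passing there says little about either gene. Of 23 MOR204 genes 4 had a log2 fold change above 0, and in 3 of them all transgenic libraries lay above all wild-type ones. Such a count is near the background, since 11.4% of all genes tested had the transgenic libraries all above.

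MOR268, the family at the distal end of the far run, had 6 genes, of which 3 were tested and 2 fell. Olfr517 was at 2.35, 3.32 and 1.90 CPM in wild-type libraries and 0.327, 0.377 and 0.368 CPM in transgenic ones. No other tested gene here had a lower log2 fold change than its -2.82 (SE 0.30, edgeR adjusted p = 0.00400). Olfr516 was at 3.72, 4.67 and 3.77 CPM in wild-type libraries and 2.15, 1.96 and 2.17 CPM in transgenic ones (-0.95, SE 0.18, edgeR adjusted p = 0.0325). The groups did not overlap for either gene. The third tested gene, Olfr518, named after its values were seen because it lies next to Olfr517, was at 6.35, 12.7 and 5.50 CPM and at 4.14, 2.88 and 3.98 CPM. It did not pass (-1.16, SE 0.33, edgeR adjusted p = 0.123). Olfr519, the most distal gene of all, had too few counts to test, at 0.381, 0.384 and 0.104 CPM in wild-type libraries and 0.300, 0.206 and 0.331 CPM in transgenic ones. Its groups overlapped, and 12.4% of its windows also occur in Olfr516. The 2 tested MOR267 genes were not called, with a median of -0.68.

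The near run had few calls and went both ways. Of its 19 tested genes 2 fell, 1 rose and the median log2 fold change was -0.23. In the far run 8 of 28 fell, 0 rose and the median was -1.02. MOR283, with 10 of 12 genes tested, held both lower calls of the near run and had a median of -0.42. Olfr706 was at 6.32, 8.29 and 9.93 CPM in wild-type libraries and 3.84, 3.67 and 3.31 CPM in transgenic ones (-1.18, SE 0.19, edgeR adjusted p = 0.0195). Olfr699 was at 2.89, 5.27 and 3.81 CPM in wild-type libraries and 1.69, 1.61 and 1.73 CPM in transgenic ones (-1.25, SE 0.25, edgeR adjusted p = 0.0405). For both genes the transgenic libraries were closely level and lay below every wild-type library. The other 8 tested MOR283 genes ranged in log2 fold change from -1.63 (Olfr704, edgeR adjusted p = 0.105) to 0.73 (Olfr698, edgeR adjusted p = 0.0947). These ends were named after their values were seen, and in both the genotypes did not overlap.

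Other abundant MOR283 genes overlapped between the genotypes. Olfr705, which lies between Olfr704 and Olfr706, was at 10.6, 15.4 and 19.4 CPM in wild-type libraries and 16.1, 12.4 and 10.3 CPM in transgenic ones (-0.23, SE 0.24, edgeR adjusted p = 0.684). Per kb of exon it was second to Olfr506 in wild-type tissue, with 4.91 CPM per kb, and first of the 62 genes in transgenic tissue, with 4.18 CPM per kb. Olfr506 stood at 2.48 CPM per kb there. Olfr693, the first gene after the gap, was at 5.18, 9.36 and 10.1 CPM in wild-type libraries and 7.50, 7.82 and 4.97 CPM in transgenic ones (-0.28, SE 0.27, edgeR adjusted p = 0.666). Wild-type library 1 was the lowest wild-type library for both genes and lay inside the transgenic range. With scaling to mature neuron markers both log2 fold changes had the other sign, 0.30 for Olfr705 and 0.25 for Olfr693.

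Olfr715, a MOR260 gene, was the only gene that rose. It was at 0.318, 0.384 and 0.519 CPM in wild-type libraries and 1.31, 1.48 and 1.40 CPM in transgenic ones (1.77, SE 0.28, edgeR adjusted p = 0.0174). The groups were well apart at a low level. Of its windows 22.6% are shared with other transcripts, among them the neighbouring copy Olfr715b, so the split of reads between the copies is uncertain. The other 4 MOR260 genes were not called, and the family's median was 0.19. One of them, Olfr710, was at 0.0953, 0.165 and 0.450 CPM in wild-type libraries and 0.354, 1.13 and 0.552 CPM in transgenic ones. Its groups overlapped, with transgenic library 2 far above the rest. Its log2 fold change of 1.53 (SE 0.63, edgeR adjusted p = 0.271) was the widest in error of the 47 tested genes. The MOR263 pair, Olfr713 and Olfr714, known as P3 and P4, and Olfr711 of MOR103 were not called, with log2 fold changes of -0.30, 0.42 and 0.10.

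Olfr692, the class I-family gene next to the class I cluster, was at 1.78, 1.51 and 1.0 CPM in wild-type libraries and 0.654, 0.515 and 0.810 CPM in transgenic ones. The groups did not overlap, but its log2 fold change of -1.12 (SE 0.31) did not pass (edgeR adjusted p = 0.121). Olfr503 had too few counts to test, and Olfr504, Olfr474 and Olfr514 had no count in any library. With 3 counts as the limit that a count of 0 allows, this sets an upper level of 0.0818 to 0.110 CPM per library, for counting error only. In all, 15 genes were not tested, 13 of the far run and 2 of the near run. None of them exceeded 0.604 CPM in any library, the level of Olfr494 in wild-type library 2.

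**Figure D2:**
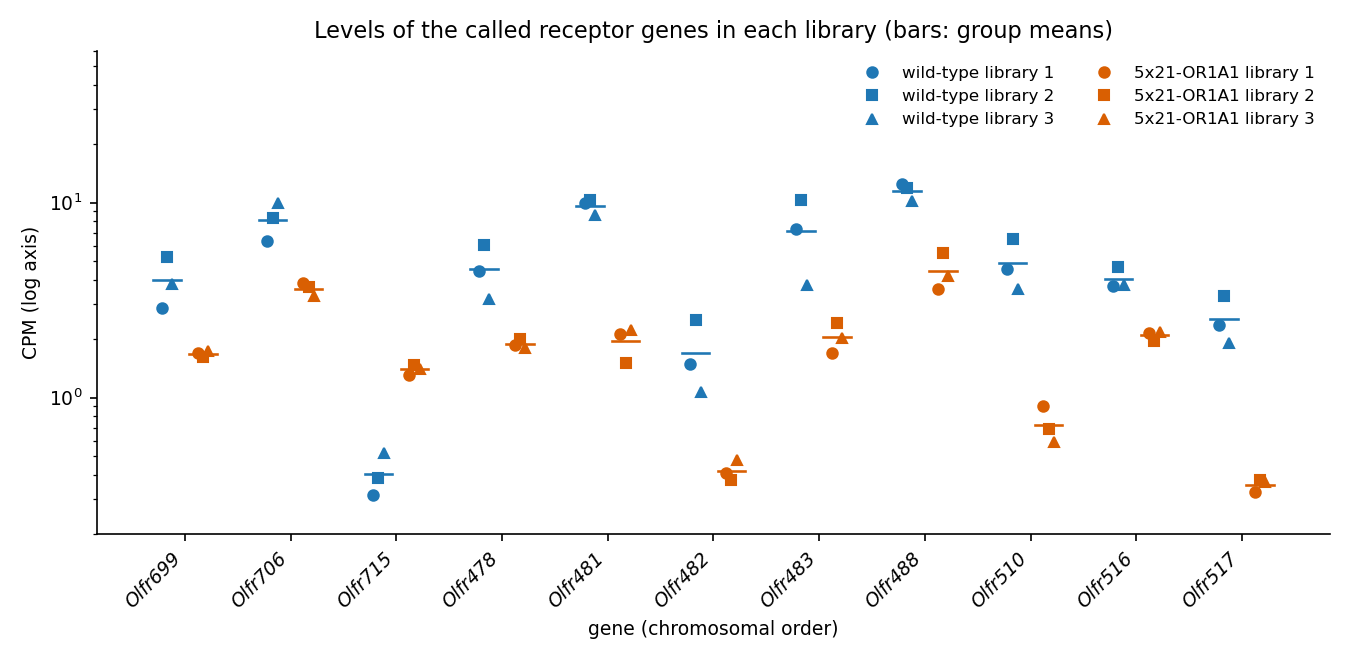
Level in CPM (log axis) of the 11 called genes in each library, with marker shapes for libraries 1, 2 and 3 of each genotype and bars for group means. The transgenic libraries lie below the wild-type ones for 10 genes and above them for Olfr715.

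For these genes the ratio of the highest to the lowest library was larger in wild-type tissue. The highest of the wild-type libraries was 1.84 times the lowest in the median over tested far-run genes and 1.83 times over near-run genes. Among transgenic libraries these ratios were 1.45 and 1.53, a difference that was not tested. Over all genes, the chi-square per degree of freedom was 52.5 to 62.3 between pairs of wild-type libraries and 84.3 to 213 between transgenic pairs. That is another measure, taken on raw counts, and its order cannot be set against that of the ratios. At least 1 window of 100 bases was shared with another transcript in 28 of the 62 genes, and at least 10% of windows in 6.

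**Figure D3:**
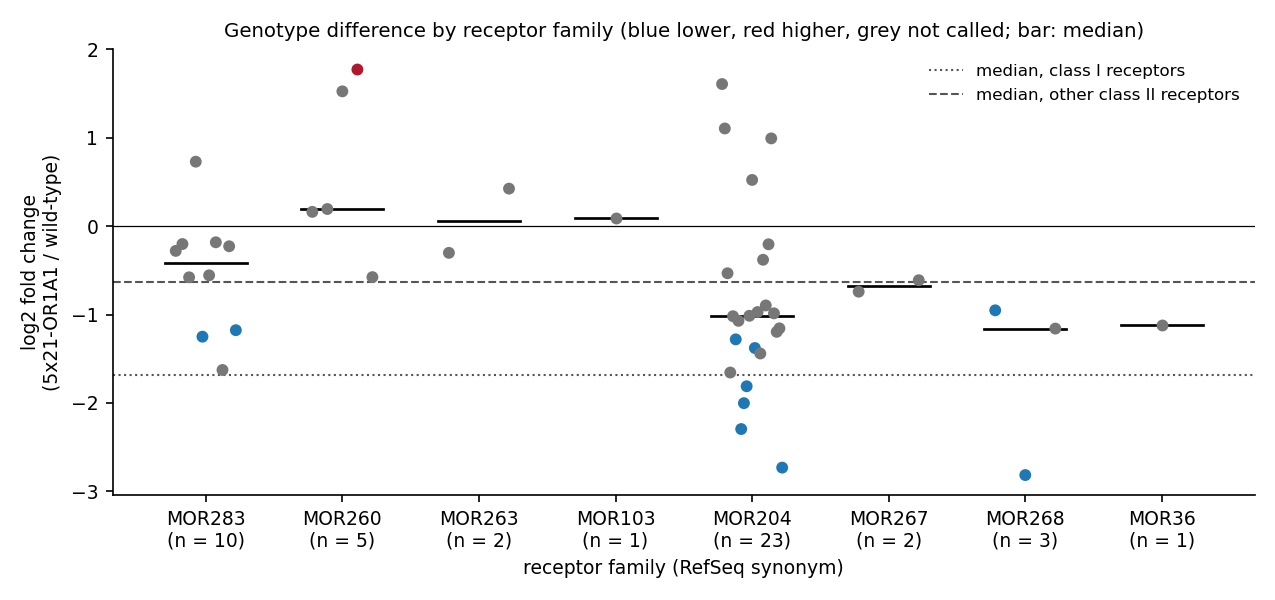
Log2 fold change of each tested gene by MOR family, with family medians as bars and the medians of class I and other class II receptors as dotted and dashed lines. MOR204 spans from -2.73 to 1.61 around a median of -1.02, and the MOR260 median lies above 0, at 0.19.

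Summed over all 62 genes, the receptors took 0.0137%, 0.0194% and 0.0159% of all counts in wild-type libraries 1, 2 and 3. In transgenic libraries 1, 2 and 3 they took 0.0106%, 0.00946% and 0.00902%. Means were 0.0163% ± 0.00283 (SD, n = 3) and 0.00970% ± 0.000818 (SD, n = 3). Every transgenic library lay below every wild-type library, and the log2 difference was -0.74 (SE 0.16, exact permutation test over libraries, two-sided p = 0.1). With 3 libraries against 3, 0.1 is the smallest p this test can give. Among receptors the genes took about the same part of the total, 3.80% ± 0.115 of all odorant receptor counts without the transgene and 3.99% ± 0.132 with it (SD, n = 3, exact permutation p = 0.2).

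The receptors of the far run made up most of that difference. They took 0.00895%, 0.0126% and 0.00811% of counts without the transgene, and 0.00482%, 0.00453% and 0.00467% with it. The transgenic values were level and all below the wild-type ones (log2 difference -1.05, SE 0.19, exact permutation p = 0.1). The near run took 0.00478%, 0.00679% and 0.00783% without the transgene, and 0.00578%, 0.00492% and 0.00436% with it. These overlapped, since wild-type library 1 lay among the transgenic libraries (-0.35, SE 0.24, exact permutation p = 0.3). The MOR204 sum differed by -1.07 and the MOR268 sum by -1.14, both without overlap (exact permutation p = 0.1 for each). MOR283 and MOR260 differed by -0.42 (exact permutation p = 0.2) and 0.11 (exact permutation p = 0.7), with overlap.

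**Figure D4:**
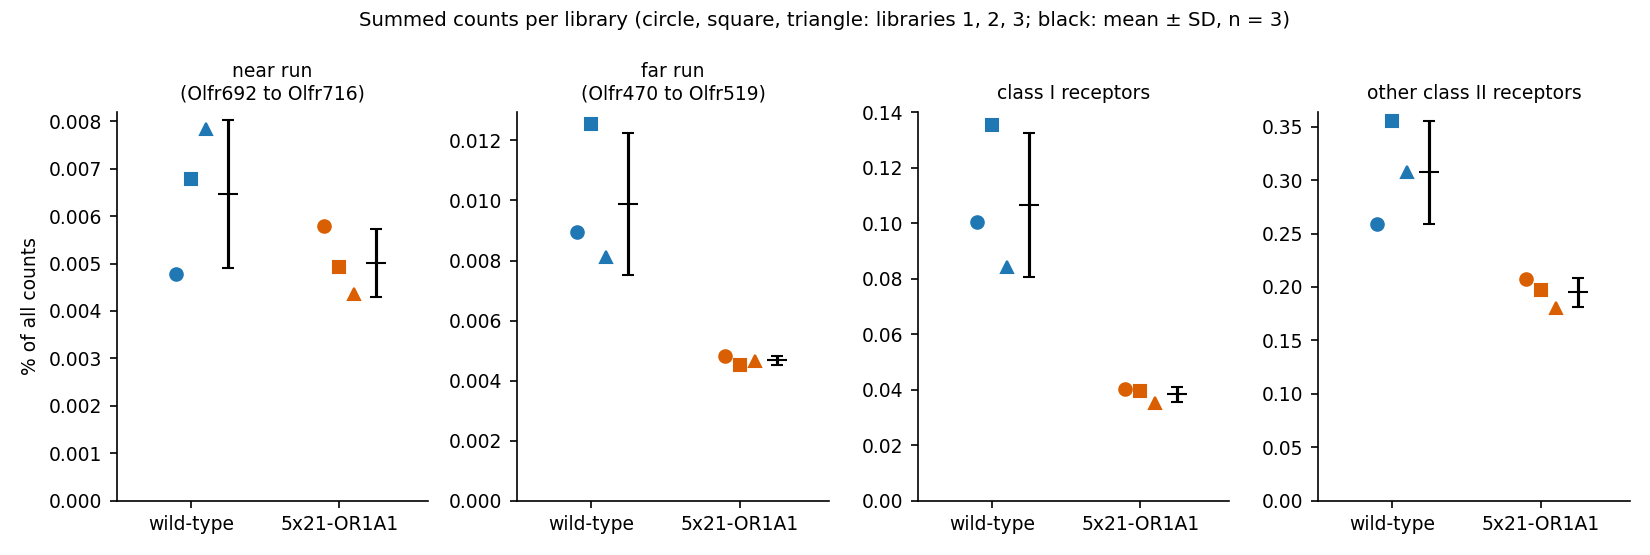
Percent of all counts (vertical axes from 0, a scale for each panel) on the near run, the far run, class I receptors and other class II receptors in each library, with the mean and SD of each genotype (n = 3). The near run overlaps between genotypes, and in the other panels all transgenic libraries lie below all wild-type ones.

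The runs were not shown to differ from each other. The near-to-far ratio of summed counts was 0.534, 0.540 and 0.966 for the wild-type libraries, and 1.20, 1.09 and 0.933 for those with the transgene. Wild-type library 3 lay within the transgenic range and apart from the other wild-type libraries, and the log2 difference of 0.71 (SE 0.30) had an exact permutation p of 0.2. Without wild-type library 3 it was 0.99 (exact permutation p = 0.1). Zone markers did not all follow this ratio. Ncam2, a ventral marker, was highest among wild-type libraries in library 3, at 11.6, 14.7 and 20.3 CPM, and overlapped the transgenic libraries, at 18.9, 20.4 and 17.4 CPM (log2 fold change 0.28, edgeR adjusted p = 0.50). Nrp2, another gene of the list, was highest among wild-type libraries in library 1, at 56.0, 37.2 and 50.1 CPM. Its transgenic libraries all lay higher, at 62.2, 69.5 and 59.2 CPM (log2 fold change 0.41, edgeR adjusted p = 0.203). The dorsal marker Nqo1 was at 553 CPM ± 123 without the transgene and 243 CPM ± 6.96 with it (SD, n = 3, log2 fold change -1.18, edgeR adjusted p = 0.00867). Of 7 dorsal and ventral markers 1, Nqo1, fell and 0 rose (median 0.28), and none was at 0. Their summed level, most of it from Acsm4 and Nqo1, was 1520 to 2039 CPM without the transgene and 1087 to 1235 CPM with it. Acsm4 was also lowest among wild-type libraries in library 3, at 1000, 1223 and 935 CPM. It was at 1053 CPM in the wild-type mean and 769 CPM in the transgenic mean (-0.45, edgeR adjusted p = 0.143). Ncam2, Nrp1, Nrp2, Fezf1 and Fezf2 had log2 fold changes above 0. The part of the dissected zones in the ratio was not tested.

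Set against the class I receptors beside them, the genes had a higher share in every transgenic library. Their summed counts were 0.137, 0.143 and 0.189 of the class I counts in wild-type libraries and 0.264, 0.239 and 0.256 in transgenic ones. All transgenic ratios lay above all wild-type ones (log2 difference 0.71, SE 0.15, exact permutation p = 0.1, the smallest possible). Of 109 class I genes tested 71.6%, or 78, were called lower and their median was -1.68. Among the 62 genes the share was 21.3% of those tested.

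Against the other class II receptors of the genome the difference was small. The ratio of summed counts was 0.0530, 0.0545 and 0.0518 for the wild-type libraries, and 0.0511, 0.0480 and 0.0501 for those with the transgene. The transgenic ratios were all lower, by 0.09 on the log2 scale in the mean (difference -0.09, SE 0.033, exact permutation p = 0.1). Of 723 other class II genes tested 21.7%, or 157, were called lower and 16 higher, and the median was -0.63. Among only the other class II genes of chromosome 7, 5 of 45 tested were called lower and 1 higher (median -0.05). Against these the log2 difference was -0.76 (exact permutation p = 0.2). Some of them, such as Olfr17 and Olfr467, lie among or between the runs.

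Relative to mature neuron transcripts the difference was smaller than in the share of all counts. Per 1000 counts of the geometric mean of the 19 markers, the genes had 236, 242 and 257 counts without the transgene, and 228, 193 and 205 with it. The groups did not overlap (log2 difference -0.23, SE 0.080, exact permutation p = 0.1), but wild-type library 1 and transgenic library 1 were close. With the sum of marker counts in place of their geometric mean it was -0.07 (exact permutation p = 0.4). As a mean of log2 values over genes it was 0.18, in the other direction.

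Other genes lie between the receptors. Of 83 such genes from the end of the class I cluster to the end of the far run, 26 were tested. Cnga4, a subunit of the olfactory cyclic nucleotide-gated channel and itself among the mature neuron markers, was called lower (log2 fold change -0.68, SE 0.14, edgeR adjusted p = 0.047), 0 were higher, and the median was 0.04. With 2.20% of all tested genes called lower, 1 call in 26 is near the background. Without wild-type library 2 or 3, or any transgenic library, 0 passed, and without wild-type library 1 there were 2. Between the runs lies Olfr467, a receptor outside the numbers used here and named after its values were seen. It was at 8.13, 12.8 and 5.74 CPM in wild-type libraries and 2.40, 2.50 and 2.58 CPM in transgenic ones (-1.84, SE 0.28, edgeR adjusted p = 0.0171). Other tested receptors outside these numbers, among or between the runs, went both ways. Olfr468-ps1 was also called lower (-2.27, edgeR adjusted p = 0.0123). Not called were Olfr1532-ps1 (-1.09), Olfr469 (-0.89), Olfr715b (-0.21), Olfr6 (0.24), Olfr17 (0.44), Olfr2 (0.98) and Olfr709-ps1 (1.11).

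Of 28 genes known from receptor choice, among them Lhx2, Ldb1, the Ebf genes and Bcl11b, 1 fell and 0 rose, with a median of 0.04. With 2.20% of all tested genes called lower, 1 call in 28 is near the background. The one that fell was Ebf4, an Ebf family transcription factor of olfactory neurons (log2 fold change -0.74, SE 0.11, edgeR adjusted p = 0.0162). The mature neuron markers had a median of -0.60.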

How the data were processed

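RNA was measured by poly-A selected, non-stranded, single-end sequencing of 100-base reads in 6 libraries, per the labels' protocols. Values are the raw counts per gene symbol that the authors deposited. The submitters' processing notes list TopHat2 2.1.1, HTSeq 0.9.1 and GRCm38.p5; counting options were not known. Since strand was not kept, overlapping genes may share reads. From the counts, TMM scaling, a filter (filterByExpr, minimum count 10, total 15) and edgeR 4.0.16's quasi-likelihood test (R 4.3.3) were run over the whole table, with Benjamini-Hochberg adjustment over 19267 genes and calls at an adjusted p under 0.05. SE is the log2 fold change divided by the square root of F. The procedure was tested on simulated data in which 200 genes were changed. There edgeR recovered 20% of 1.5-fold, 84% of 2-fold, 96% of 3-fold and 100% of 4-fold changes. It also made 21 false calls, in that run a larger part of its calls than a threshold of 0.05 allows. Genes of low counts were not among those changed there. Sums of counts were compared with two-sided exact permutation tests over libraries, which give 0.1 at the least. Positions and 100-base windows came from GENCODE vM21, and families and promoters from RefSeq. Replicate libraries differed by more than sampling noise.

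Genes were named by a rule: those called, the 6 of highest wild-type CPM, the 3 highest fold changes not called, the first and last, and those with no count. The genes, lists and rule were chosen with earlier results of these data known. Alternatives were DESeq2 1.42.0 and its size factors, other filters, scaling to markers, a replicate block and leaving out each library.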

Additional observations from a re-analysis of the deposited data

How the results depend on the processing

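Counts of calls and sums both changed with the settings. In parentheses are the shares of all genes called lower and higher in the same fit. DESeq2 size factors within edgeR gave 10 lower and 1 higher (2.19% and 0.488%), no filter 15 and 1 (1.82% and 0.519%), and the stricter filter of 1 CPM in 3 libraries 11 and 1 (2.60% and 0.647%). DESeq2 called 17 of the receptor genes, 15 lower and 2 higher (4.53% and 1.51%), and 3 of the neighbouring genes that are not receptors. Scaling to the mature neuron markers, which moved the median of all genes to 0.52, gave 17 receptor calls, 10 lower and 7 higher (1.52% and 44.3%), and 9 neighbours. In that fit the receptor median was -0.23, and 7 uncalled genes changed sign: Olfr693 (0.25), Olfr694 (0.33), Olfr703 (0.34), Olfr705 (0.30), Olfr713 (0.25), Olfr493 (0.14) and Olfr497 (0.33). With the replicate block there were 4 calls, 4 lower and 0 higher (1.68% and 0.280%). An edgeR adjusted p under 0.01 also left 4 lower and 0 higher. The share of all genes under 0.01 was not counted, so those calls cannot be set against the background. Same-numbered libraries did not deviate together (correlations -0.33, 0.07 and -0.17), and not every library correlated best with its own number, so the samples share only a number.

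Leaving out each library gave 3 to 9 lower, 0 to 2 higher, 3 to 11 calls in all and 0 to 2 neighbours. The lower counts of these fits come with fewer libraries. Uncalled genes that changed sign there were Olfr702 (-0.17 to 0.65), Olfr707 (-0.00465 to 0.43) and Olfr711 (-0.22 to 0.94). The log2 difference in summed share ran from -0.86 to -0.61, against other class II from -0.11 to -0.07, against class I from 0.62 to 0.85, near to far from 0.56 to 0.99 and per marker count from -0.30 to -0.18. As a mean of log2 CPM over genes, the summed share differed by -0.33, near to far by 0.31, against other class II by -0.03 (exact permutation p = 0.8) and against class I by 0.84. Per marker count it was 0.18, the only one of these that reversed, and the cause was not tested. These means added 0.5 CPM to every receptor gene, also to those without counts, but nothing to the markers. The part of that addition in the reversal was not tested. Paired by number, the summed differences have the same size with an exact permutation p of 0.25 at the least. Without the genes of class I family name, an alternative chosen after seeing the data, no sum changed direction. Sequencing depth limits the 15 untested genes, and shared windows limit the 6 genes with at least 10% of them.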
